A study of Homo sapiens with 179 samples.

Results

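The genes described here are 10 components of WNT signalling, namely SFRP1, SFRP2, DKK1, FZD5, FZD7, CTNNB1, AXIN2, TCF7L1, LEF1 and SP5. They were taken by gene symbol from the deposited expression tables, which hold 19084 genes, and all 10 were found. All 179 RNA-seq libraries come from 1 established line of human embryonic stem cells, H1, kept in the defined medium E8 on a Matrigel coat. LM-Seq, a strand-specific protocol that isolates mRNA with oligo-dT and primes with random hexamers, gave the libraries of Lanes 1 to 4. Lane 1 holds 95, Lane 2 holds 48, Lane 3 holds 24 and Lane 4 holds 6, and depth per library follows from how many share a lane. TruSeq, a commercial RNA library kit, gave the groups H1p43 (n = 3) and H1p16 (n = 3), run with 12 samples per lane. The labels do not say what the letter p stands for, nor whether replicates were grown separately. Replicate spread may thus be technical, and the p-values below measure no more than that spread. LM-Seq titles carry a 5-digit library number that recurs across lanes.

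WNT proteins bind Frizzled receptors and the co-receptors LRP5 and LRP6 at the cell surface, which halts the destruction of beta-catenin. Beta-catenin, encoded by CTNNB1, then enters the nucleus and joins TCF and LEF proteins at target genes such as AXIN2, SP5, LEF1 and DKK1. In pluripotent cells TCF7L1 is known mainly as a repressor of these targets, and activation of the pathway is used to drive cells toward mesoderm and endoderm.

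TCF and LEF proteins recognise a short DNA motif, and the promoters of 3 members are shown because the targets SP5 and DKK1 were nearly silent while SFRP2 was among the strongest members. The RefSeq promoters run from 250 bases before to 50 bases after each gene's start on the build GRCh38.p14, and 7 of the 10 members were matched by symbol. SFRP1, FZD7 and the target AXIN2 were not matched, so no window was searched for them. In all, 4 motifs were searched on both strands. One motif was CTTTGAA and another motif was CTTTGAT. The remaining motifs were CTTTGTA and, with a different last letter, CTTTGTT. Capitals mark a match. Matches on opposite strands can share their last bases, but none shown here overlap. SP5 lies on the plus strand at chr2:170715087-170715386, DKK1 on the plus strand at chr10:52314031-52314330 and SFRP2 on the minus strand at chr4:153789034-153789333.
SP5: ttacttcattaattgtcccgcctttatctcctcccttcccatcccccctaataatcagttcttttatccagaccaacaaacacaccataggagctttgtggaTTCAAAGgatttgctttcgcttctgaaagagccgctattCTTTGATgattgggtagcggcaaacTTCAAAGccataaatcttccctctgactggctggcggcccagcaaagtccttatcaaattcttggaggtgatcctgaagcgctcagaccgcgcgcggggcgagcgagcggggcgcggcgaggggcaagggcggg
DKK1: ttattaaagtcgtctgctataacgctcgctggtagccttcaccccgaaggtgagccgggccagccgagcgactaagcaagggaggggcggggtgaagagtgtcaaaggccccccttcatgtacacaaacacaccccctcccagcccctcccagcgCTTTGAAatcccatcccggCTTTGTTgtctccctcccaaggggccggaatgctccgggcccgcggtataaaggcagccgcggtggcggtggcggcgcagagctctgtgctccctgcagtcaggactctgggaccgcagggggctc
SFRP2: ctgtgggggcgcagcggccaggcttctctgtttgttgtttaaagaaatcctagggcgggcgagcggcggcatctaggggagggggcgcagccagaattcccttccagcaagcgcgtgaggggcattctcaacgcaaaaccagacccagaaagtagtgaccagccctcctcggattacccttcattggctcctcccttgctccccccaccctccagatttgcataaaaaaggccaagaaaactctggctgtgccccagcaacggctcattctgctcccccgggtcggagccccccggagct
The SP5 promoter held 3 matches, starting at -148, -109 and -84 relative to the gene's start, with those at -148 and -84 on the opposite strand. The DKK1 promoter held 2 matches, at -95 and -76, and the windows of SFRP2, FZD5, CTNNB1, TCF7L1 and LEF1 held none. A single start was searched per gene, so any other start of a gene was not covered. Of 35116 promoters of this length, 13.8% held at least 1 match and 0.179% held at least 3. A match describes the letters in the window and is no evidence of binding.

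The lowest and highest library totals, in expected counts, were 1040671 and 1539277 for Lane 1, 2005736 and 2739084 for Lane 2, 4028607 and 4918577 for Lane 3, and 15780078 and 16583048 for Lane 4. They were 29018106 and 35852646 for H1p43 and 23680503 and 30628645 for H1p16. A floor of 3 counts is worth 1.95 to 2.88 CPM (counts scaled to a common library total) in Lane 1 but 0.181 to 0.19 CPM in Lane 4. All 8 pluripotency markers averaged at least 10 TPM (a level scaled by transcript length and library total) in every group. Each of the other marker lists held genes under 1 TPM in every group, namely PAX6, SOX1 and ZIC1 of neuroectoderm, T, MIXL1, EOMES, MESP1, GSC and HAND1 of primitive streak and mesoderm, SOX17, FOXA2, GATA6 and HHEX of endoderm, and COL3A1, DCN and LUM of stroma. Other genes of these lists were well expressed. Group means ran from 111.6 to 227 TPM for NES of the neuroectoderm list, from 40.7 to 88.3 TPM for KDR of the streak list and from 251 to 495 TPM for THY1 of the stroma list, of whose 8 genes 4 or 5 averaged at least 10 TPM. CER1 was the highest endoderm marker, at 1.75 to 3.59 TPM.

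Expression of the members fell into 3 tiers. SFRP1, SFRP2, CTNNB1, TCF7L1 and FZD7 averaged above 100 TPM in every group, FZD5 and AXIN2 between 12.9 and 29.3 TPM, and LEF1, DKK1 and SP5 at most 1.44 TPM. TPM corrects for transcript length but not for every effect of a protocol on a gene. Ranks between genes are thus given group by group. The order within the upper tier differed between protocols. In the 6 libraries of Lane 4 the order was CTNNB1, SFRP1, SFRP2, FZD7 and TCF7L1, with only CTNNB1 and SFRP1 overlapping between neighbours, although CTNNB1 exceeded SFRP1 within 6 of 6 libraries. Lanes 1 to 3 gave the same order. In H1p43 the order was SFRP2, SFRP1, CTNNB1, TCF7L1 and FZD7, with no overlap between neighbours over 3 libraries. In H1p16 it was SFRP2, CTNNB1, SFRP1, TCF7L1 and FZD7, and CTNNB1 and SFRP1 could not be ranked, at 297 ± 6.4 and 297 ± 4.4 TPM (SD, n = 3). In bulk RNA, fewer cells that express a gene cannot be told apart from less RNA per cell.

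**Figure D1:**
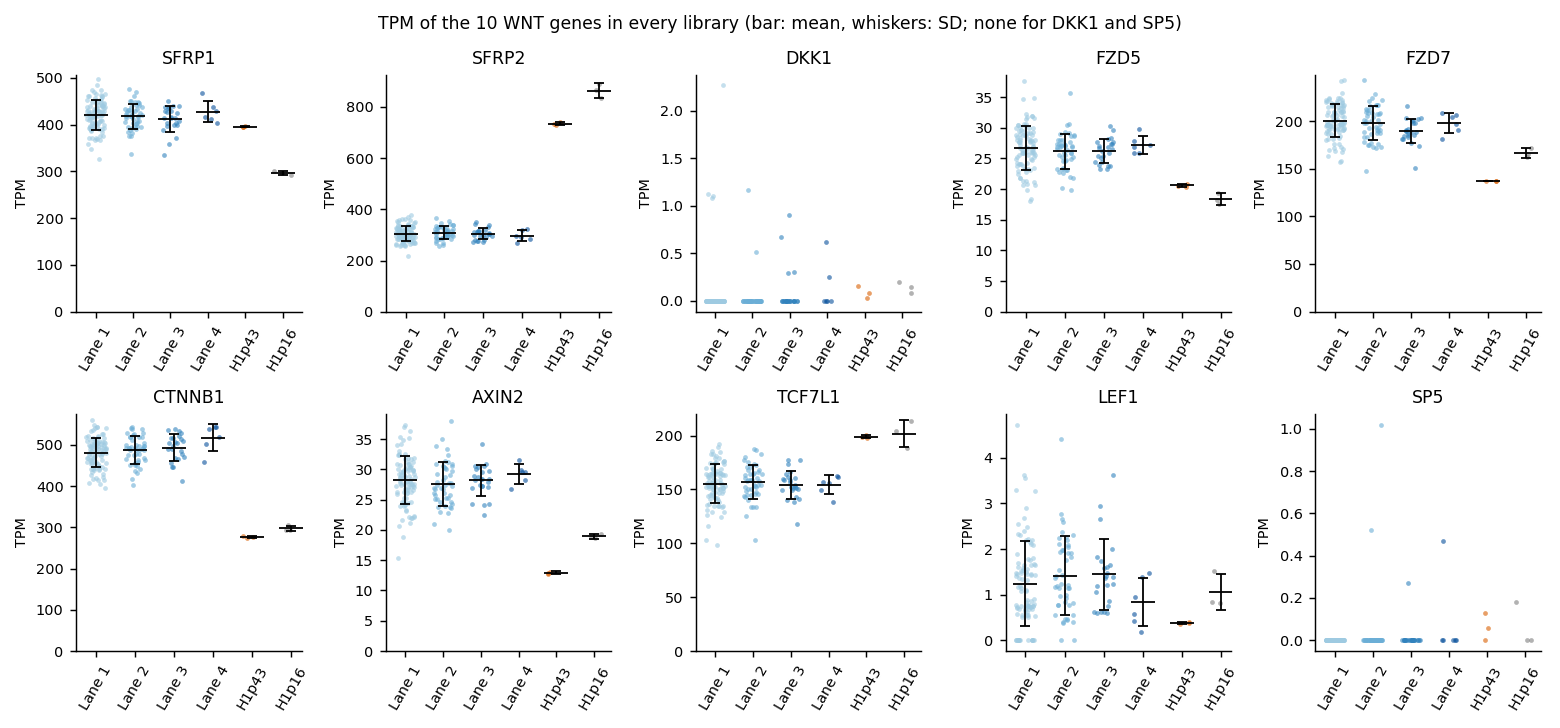
TPM of each of the 10 genes (vertical axes, linear) in every library of the 6 groups (horizontal axes); points are libraries, bars means and whiskers SD, drawn for all genes but DKK1 and SP5. SFRP2 lies between 269.8 and 324 TPM in Lane 4 but at 731 TPM or more in all TruSeq libraries, while LEF1, DKK1 and SP5 stay below 5 TPM everywhere.

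Within TruSeq, H1p43 libraries were compared with H1p16 libraries. SFRP1 was higher in H1p43, while SFRP2, FZD7, CTNNB1, AXIN2, TCF7L1 and LEF1 were lower. SFRP1 and SFRP2 encode secreted Frizzled-related proteins, which bind WNTs outside the cell. SFRP1 had 395, 395 and 397 TPM in H1p43, against 302, 296 and 293 TPM in H1p16. SFRP2 had 742, 731 and 732 TPM in H1p43, against 890.4, 868 and 834 TPM in H1p16. The groups did not overlap for either gene, and the log2 fold changes were 0.30 ± 0.02 for SFRP1 and -0.34 ± 0.02 for SFRP2 (SE; adjusted p = 5.5e-11 and 1.2e-10 in edgeR's quasi-likelihood test). The opposite shifts nearly cancelled, and SFRP1 and SFRP2 together came to 1131 ± 5.8 TPM in H1p43 and 1161 ± 32.9 TPM in H1p16.

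The Frizzled receptor FZD7 lay between 136.9 and 137.3 TPM in the 3 H1p43 libraries, against 171.9, 165.4 and 162.4 TPM in H1p16, with no overlap and a log2 fold change of -0.39 ± 0.02 (adjusted p = 6.8e-11, edgeR). FZD5, another Frizzled receptor, had 20.9, 20.55 and 20.4 TPM in H1p43, against 19.4, 18.2 and 17.55 TPM in H1p16. Its TPM values did not overlap, but edgeR gave 0.06 ± 0.04 (adjusted p = 0.160). FZD5 passed the test when H1p16 replicate 1 was left out (0.08; adjusted p = 0.0387, edgeR) and with limma on log2(TPM + 1), where it was at 0.16 (adjusted p = 0.0069). FZD7 made up 63.2% ± 0.27 of the TPM of FZD1 to FZD10 in H1p43 and 75.1% ± 0.35 in H1p16 (SD, n = 3 each), while the family sum was 217 ± 1.15 TPM in H1p43 and 222 ± 7.51 TPM in H1p16.

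CTNNB1 had 279, 273 and 277 TPM in H1p43, against 294, 293 and 305 TPM in H1p16, a log2 fold change of -0.21 ± 0.02 (adjusted p = 8.4e-08, edgeR). AXIN2, a scaffold of the complex that destroys beta-catenin and itself a target of the pathway, had 12.95, 13.1 and 12.7 TPM in H1p43, against 19.4, 18.8 and 18.7 TPM in H1p16. Neither gene overlapped between the groups, and AXIN2 had a log2 fold change of -0.66 ± 0.04 (adjusted p = 9.6e-11, edgeR). TCF7L1 had 200.5, 198 and 198 TPM in H1p43, against 213, 204 and 188 TPM in H1p16. These ranges overlapped, and the edgeR call of -0.13 ± 0.03 (adjusted p = 0.0014) was lost with limma on log2(TPM + 1), at -0.02 (adjusted p = 0.672). LEF1, the TCF-family factor that activates targets, had 0.38, 0.35 and 0.39 TPM in H1p43, against 1.52, 0.85 and 0.82 TPM in H1p16. It was the only member past 2-fold, at -1.56 ± 0.24 (adjusted p = 1.8e-05, edgeR), on 15 to 24 counts per library in H1p43 and 39 to 54 in H1p16.

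In this comparison 8 members passed the filter on low counts, and DKK1 and SP5 did not. Of these 8 members, 1 was called higher and 6 lower in H1p43, where 36.4% of all 14574 tested genes were called higher and 35.4% lower. LEF1 alone changed at least 2-fold, against a background of 7.28%, and 7 did not overlap in TPM, where 73.7% of all genes did not. The median log2 fold change was -0.28 over the 8 members and 0.01 over all genes. The split of calls over all genes depended on scaling: 50.7% of called genes were higher in H1p43 with edgeR, against 64.2% when limma was run on TPM, with the median gene then at 0.09. Of the 8 pluripotency markers 7 were also lower in H1p43, with summed levels of 6536 to 6573 TPM in H1p43 and 8015 to 8257 TPM in H1p16, and 4 of 6 tested neuroectoderm markers were higher, with sums of 183 to 186 TPM in H1p43 and 176 to 183 TPM in H1p16. Of 5 tested stroma markers 3 were higher and 2 lower in H1p43. Primitive streak and mesoderm markers summed to 45.2 to 45.6 TPM in H1p43 and 76.6 to 78.6 TPM in H1p16, mostly KDR at 40.7 and 74.2 TPM, and of the 2 tested 1 was higher and 1 lower. Endoderm markers summed to 5.78 to 5.98 TPM in H1p43 and 3.7 to 4.23 TPM in H1p16, and of the 2 tested 1 was higher. Their part in the result was not tested.

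LM-Seq was set beside TruSeq with Lane 4, the lane nearest in depth, against each TruSeq group. Protocol, lane and any difference in culture change together here and cannot be told apart. The 2 comparisons share the Lane 4 libraries. SFRP2 showed the largest difference from H1p16 among the members. It had 291, 319.8, 295, 324, 269.8 and 284 TPM in the 6 Lane 4 libraries, which are listed in the order of their library numbers here and below. All 6 lay below all TruSeq libraries, and the log2 fold change was -1.21 ± 0.05 against H1p43 (adjusted p = 5.6e-14, edgeR) and -1.57 ± 0.05 against H1p16 (adjusted p = 1.6e-16, edgeR). SFRP1 moved the other way. It had 430.0, 467, 403, 437, 416 and 412 TPM in Lane 4, above all TruSeq libraries, at 0.21 ± 0.04 against H1p43 and 0.49 ± 0.04 against H1p16 (adjusted p = 7.0e-05 and 8.8e-10, edgeR). On the log2(TPM + 1) scale with limma and no filter, the SFRP1 difference from H1p43 was 0.11 and missed the threshold (adjusted p = 0.0515).

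The ratio of SFRP2 to SFRP1 therefore separated the groups. It averaged 0.696 ± 0.035 in Lane 4 (SD, n = 6), against 1.86 ± 0.02 in H1p43 and 2.91 ± 0.06 in H1p16 (n = 3 each). In Lane 1 it ran from 0.544 to 0.918, with a median of 0.725, so 0 of 95 libraries held more SFRP2 than SFRP1. The sum of both genes was 725 ± 40.4 TPM in Lane 4, against 1131 TPM in H1p43 and 1161 TPM in H1p16.

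**Figure D2:**
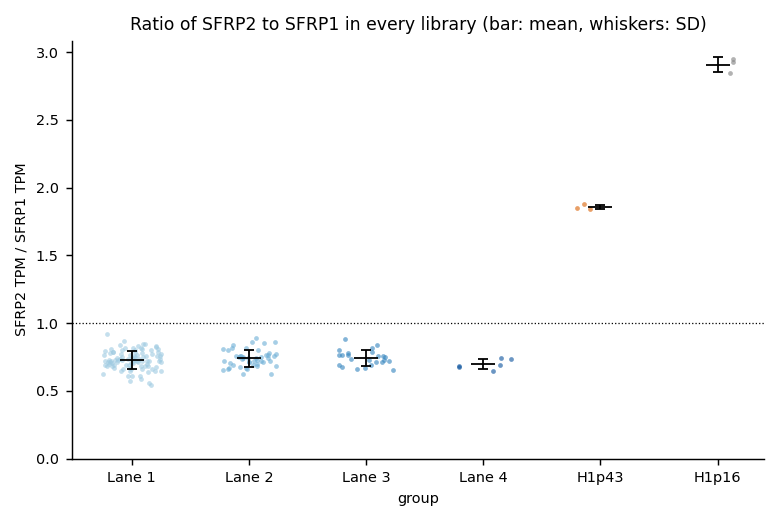
Ratio of SFRP2 TPM to SFRP1 TPM (vertical axis, linear from 0) in every library of the 6 groups (horizontal axis); points are libraries, bars means, whiskers SD, and the dotted line marks equal levels. All LM-Seq libraries lie below the line and all TruSeq libraries above it, with means of 0.696 in Lane 4, 1.86 in H1p43 and 2.91 in H1p16.

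Both receptors were higher in Lane 4. FZD7 had 204, 209, 182, 191, 206 and 197 TPM and FZD5 had 27.9, 25.8, 26.8, 27.1, 29.8 and 25.9 TPM in Lane 4, and for both all 6 values lay above all TruSeq values. FZD7 was at 0.63 ± 0.04 against H1p43 and 0.22 ± 0.04 against H1p16, and FZD5 at 0.50 ± 0.06 and 0.54 ± 0.06 (adjusted p at most 2.2e-04 in these 4 edgeR tests). FZD7 held 74.9% ± 0.59 of Frizzled TPM in Lane 4 (SD, n = 6), against 63.2% in H1p43 and 75.1% in H1p16.

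CTNNB1 had 519, 543, 542, 539, 501 and 459 TPM in Lane 4, above all TruSeq libraries, with log2 fold changes of 1.04 ± 0.04 against H1p43 and 0.81 ± 0.05 against H1p16 (adjusted p = 2.4e-13 and 2.4e-12, edgeR). AXIN2 had 29.6, 29.9, 29.6, 28.2, 26.7 and 31.5 TPM in Lane 4, also above all TruSeq libraries. It differed by 1.28 ± 0.07 from H1p43 and by 0.60 ± 0.07 from H1p16 (adjusted p = 1.4e-11 and 2.6e-07, edgeR). TCF7L1 was lower, with 161.6, 149.8, 138.8, 156.8, 162.2 and 156.2 TPM in Lane 4, below all TruSeq libraries. Its log2 fold changes were -0.27 ± 0.05 against H1p43 and -0.42 ± 0.05 against H1p16 (adjusted p = 4.5e-05 and 4.2e-07, edgeR). CTNNB1 thus exceeded TCF7L1 3.37-fold ± 0.36 in Lane 4 (SD, n = 6), against 1.39-fold ± 0.01 in H1p43 and 1.48-fold ± 0.12 in H1p16 (n = 3 each).

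LEF1 had 0.57, 0.43, 0.18, 1.38, 1.48 and 0.94 TPM in Lane 4, a range that took in H1p43 entirely and overlapped H1p16. Neither difference was called, at 1.16 ± 0.63 against H1p43 and -0.45 ± 0.53 against H1p16 (adjusted p = 0.106 and 0.470, edgeR). With the 24 libraries of Lane 3 in place of Lane 4, the difference from H1p43 was 1.81 and was called (adjusted p = 8.9e-05, edgeR), and that from H1p16 was 0.23 and was not called (adjusted p = 0.544, edgeR).

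**Figure D3:**
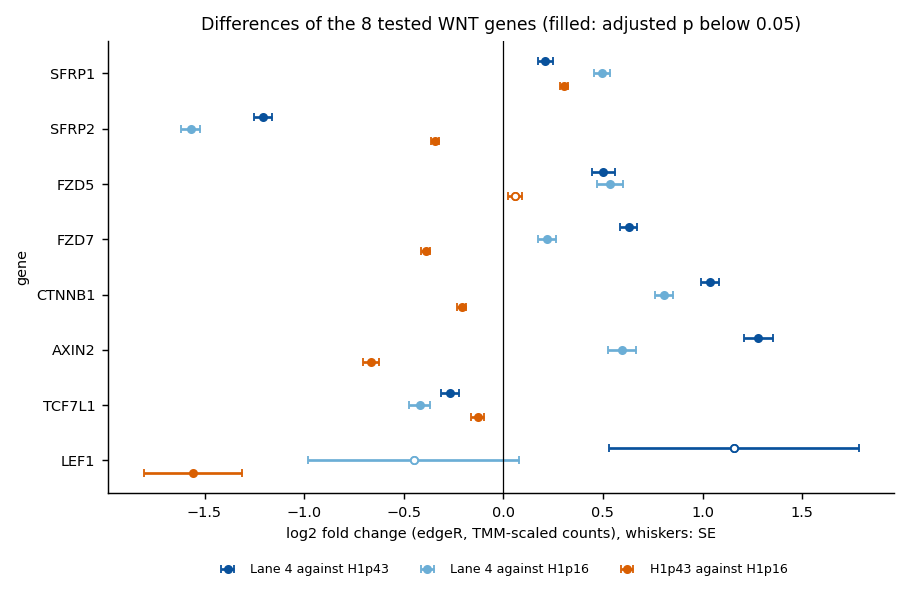
Log2 fold changes (horizontal axis) of the 8 tested genes (vertical axis) for Lane 4 against H1p43, Lane 4 against H1p16 and H1p43 against H1p16; whiskers are SE and open points missed the adjusted threshold of 0.05. SFRP2 and TCF7L1 lie left of 0 in all 3 comparisons, and CTNNB1 and AXIN2 right of 0 against both TruSeq groups.

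Against H1p43, 5 of the 8 tested members were called higher in Lane 4 and 2 lower, where 35.5% and 37.8% of all 14089 genes were. Against H1p16 the counts were also 5 and 2, where 33.4% of 13808 genes were called higher and 33.4% lower. SFRP2, CTNNB1 and AXIN2 differed at least 2-fold from H1p43, where 29.8% of genes did, and SFRP2 from H1p16, where 19.4% did. In both comparisons 7 members did not overlap, beside 71.4% of genes against H1p43 and 63.1% against H1p16. The median log2 fold change of the members was 0.57 against H1p43, beside -0.07 over all genes, and 0.36 against H1p16, beside -0.02. Of 8 pluripotency markers, 6 were higher and 2 lower in Lane 4 in each comparison, with sums of 10709 to 11664 TPM in Lane 4. Of 5 tested stroma markers 2 were higher and 3 lower, with sums of 473 to 528 TPM in Lane 4, against 792 to 821 TPM in H1p43 and 768 to 807 TPM in H1p16. Neuroectoderm markers summed to 222 to 270.2 TPM in Lane 4, above the TruSeq sums, and NES averaged 215 TPM in Lane 4. Most tested genes of that list were nonetheless lower in Lane 4, with 1 higher and 4 lower of 6 against H1p43 (median log2 fold change -1.26) and 2 higher and 3 lower of 5 against H1p16 (median -0.69). Primitive streak and mesoderm markers summed to 82.8 to 92.96 TPM and endoderm markers to 2.18 to 4.89 TPM in Lane 4. Of the 2 tested streak markers 1 was higher and 1 lower in each comparison. Of the tested endoderm markers none was called higher, and 1 of 3 was lower against H1p43 and 0 of 2 against H1p16. Their part in the result was not tested.

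The rest of the pathway was read from the same tests, using a list of other pathway genes grouped by role. In H1p43 against H1p16, 79 of them were tested, and 32 were higher and 28 lower (40.5% and 35.4%), with a median of -0.04. These shares lie near the 36.4% and 35.4% over all genes. Of 14 nuclear factors 10 were lower and 2 higher, among them the coactivator EP300 at -0.82 ± 0.03, its relative CREBBP at -0.85 ± 0.04 and the corepressor TLE1 at -0.49 ± 0.03. Of 16 receptors 8 were higher and 4 lower, with FZD2 at 21.9 ± 0.47 TPM in H1p43 and 9.96 ± 0.92 TPM in H1p16 (SD, n = 3 each; log2 fold change 1.04 ± 0.05, SE). FZD4 was also higher (0.74 ± 0.06), and ROR1, a receptor for WNT5A, was lower (-0.34 ± 0.03). Of 10 tested ligands and R-spondins, 4 were higher, including RSPO4 (0.59 ± 0.09) and WNT8B (1.45 ± 0.26), and 2 lower, including WNT3 (-1.03 ± 0.18).

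Of 20 cytoplasmic transducers, 10 were higher and 7 lower in H1p43, including APC, a scaffold that helps destroy beta-catenin, at -0.76 ± 0.04 and the kinase CSNK1D at -0.43 ± 0.03. Of 10 antagonists, 4 were higher, with KREMEN1, a receptor for Dickkopf proteins, at 1.24 ± 0.10 and the Dickkopf family member DKK3 at 0.40 ± 0.04, and 2 were lower. Of 7 tested targets 2 were higher and 3 lower, the lower ones including CCND1, which encodes cyclin D1, at 62.4 ± 0.91 TPM in H1p43 and 105.4 ± 3.26 TPM in H1p16 (SD, n = 3 each; -0.87 ± 0.03, SE). The adjusted p of each gene named in these paragraphs on H1p43 was at most 8.4e-05 in edgeR.

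In Lane 4 against H1p16, 72 of these genes were tested, and 23 were higher and 26 lower (31.9% and 36.1%), near the 33.4% in each direction over all genes. The co-receptor LRP6 had 55 ± 2.32 TPM in Lane 4 (SD, n = 6) and 25.8 ± 0.84 TPM in H1p16 (n = 3), a log2 fold change of 1.06 ± 0.05 (SE). FZD3 was higher (0.75 ± 0.09) and FZD8 lower (-2.10 ± 0.28). The target CCND2, which encodes cyclin D2, had the largest difference of the genes named here, with 219 ± 8.48 TPM in Lane 4 and 30.4 ± 1.44 TPM in H1p16 (2.82 ± 0.05). Of 6 tested targets 2 were higher and 1 lower, the lower one being MYC (-0.32 ± 0.06). Of 10 antagonists 1 was higher and 5 lower, and of 14 nuclear factors 4 were higher and 8 lower. Of 15 receptors 5 were higher and 4 lower, and of 19 cytoplasmic transducers 10 were higher and 7 lower. TCF7L2, a TCF factor, was higher (0.73 ± 0.05) and TLE1 lower (-0.97 ± 0.05). With TCF7L2 higher and TCF7L1 lower, TCF7L1 held 62.6% ± 1.46 of the summed TPM of the 4 TCF and LEF genes in Lane 4, against 79% ± 0.17 in H1p43 and 77.1% ± 0.57 in H1p16 (SD). WNT5A was higher in Lane 4 (1.49 ± 0.20) and RSPO4 lower (-1.55 ± 0.34). The adjusted p of each gene named here was at most 4.1e-04 against H1p16 in edgeR. Against H1p43, 76 of the other pathway genes were tested, and 27 were higher and 27 lower (35.5% each). Over all genes the shares were 35.5% and 37.8%. Of 10 antagonists 1 was higher and 5 lower there too, but of 13 nuclear factors 7 were higher and 5 lower. MYC was not called against H1p43 (-0.01 ± 0.05, adjusted p = 0.867, edgeR). The other genes named here were called in the same direction as against H1p16. The 19 WNT ligand genes together reached only 11.2 ± 2.29 TPM in Lane 4, 8.35 ± 0.39 TPM in H1p43 and 8 ± 0.19 TPM in H1p16, and the highest was WNT5A in Lane 4 (3.69 TPM) but WNT3 in H1p43 (1.44 TPM) and H1p16 (2.73 TPM).

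The targets DKK1 and SP5, whose promoters are printed above, were at the edge of detection. DKK1, a secreted inhibitor that binds LRP5 and LRP6, had at least 1 count in 4 of 95 libraries of Lane 1, 2 of 48 of Lane 2, 4 of 24 of Lane 3 and 2 of 6 of Lane 4, and in all TruSeq libraries. Summed counts gave 0.102 CPM in Lane 4 (95% exact Poisson interval 0.0491 to 0.188), 0.0816 CPM in H1p43 (0.0352 to 0.161) and 0.121 CPM in H1p16 (0.0578 to 0.222). These intervals overlap and cover counting error only. SP5, a zinc-finger factor, had 0 counts in 95 libraries of Lane 1, where a floor of 3 counts over their summed total is worth 0.0248 CPM and the exact Poisson upper limit is 0.0305 CPM. It had 0.0614 CPM in Lane 4 (0.0225 to 0.134), 0.0612 CPM in H1p43 (0.0225 to 0.133) and 0.0603 CPM in H1p16 (0.0196 to 0.141). No difference in DKK1 or SP5 between Lane 4, H1p43 and H1p16 was detectable at this depth.

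In LM-Seq, 9 library numbers held DKK1 counts, of which 2 did so in more than 1 lane, and 2 numbers held SP5 counts, of which 1 did so. Of these, 7 DKK1 numbers and both SP5 numbers were sequenced in more than 1 lane. All 6 SP5 counts of Lane 4 came from 1 library number, which also held 2 of the 3 SP5 counts of Lane 2 and the only SP5 count of Lane 3. Another number held 2 of 5 DKK1 counts in Lane 1, 0 of 3 in Lane 2, 3 of 7 in Lane 3 and 7 of 10 in Lane 4. The other 3 DKK1 counts of Lane 4 were in the number that held its SP5 counts. Chosen after their values were seen, these numbers are given as a description. LEF1 was seen more widely, in 81 of 95 libraries of Lane 1, 46 of 48 of Lane 2 and all of Lanes 3 and 4, at 1.53 CPM (1.32 to 1.77), 1.72 CPM (1.49 to 1.98), 1.72 CPM (1.48 to 1.99) and 1.05 CPM (0.861 to 1.28) in Lanes 1 to 4. These intervals cover counting error only, and LEF1 counts ran from 3 to 34 between the 6 libraries of Lane 4. The lanes also hold different sets of numbers. In Lane 1 the 6 numbers of Lane 4 averaged 0.76 TPM of LEF1, against 1.24 TPM over all 95 libraries.

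The 95 libraries of Lane 1 gave wider ranges than the 6 of Lane 4. Lane 1 libraries hold the fewest counts, and a range also widens with the number of libraries. From lowest through median to highest, SFRP1 had 327, 421 and 497 TPM, SFRP2 had 216, 303 and 378 TPM, and CTNNB1 had 395, 486 and 561 TPM. FZD7 had 157.2, 198.6 and 243 TPM, TCF7L1 98.02, 155.9 and 192 TPM, FZD5 18.1, 26.8 and 37.7 TPM, AXIN2 15.3, 28.3 and 37.4 TPM, and LEF1 0, 1.11 and 4.73 TPM. Of the 7 members above 10 TPM, SFRP2 and CTNNB1 still did not overlap any TruSeq library, while the other 5 each overlapped at least 1 TruSeq group.

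Comparisons between lanes asked whether depth moved the members over the same library numbers. None of the 7 tested members was called. Log2 fold changes ran from -0.05 to 0.00 in Lane 2 against Lane 1 (48 numbers), from -0.08 to 0.01 in Lane 3 (24 numbers) and from -0.09 to 0.03 in Lane 4 (6 numbers). SFRP2 was farthest from 0 in Lane 4, where 6 numbers averaged 297 ± 20.97 TPM, against 317 ± 26.6 TPM in Lane 1 (SD). Of all genes edgeR called 0% in Lane 2, 0% in Lane 3 and 0.0161% in Lane 4, of 10120, 10871 and 12419 genes tested. In Lanes 2 and 3, 182 and 216 genes had an unadjusted p under 0.05, fewer than chance alone gives at that threshold. These fits leave out the shared library numbers, so small shifts can be missed. DESeq2 called 0, 0 and 2 genes in Lanes 2, 3 and 4. The 2 genes edgeR called in Lane 4, SERF1A and the read-through model FAM47E-STBD1, are no members and are named after their values were seen. Same-numbered libraries deviated together, so the number can serve as a block, which raised these shares to 0.257%, 0.405% and 0.105%. No member was called with the block either, and the smallest adjusted p among them was 0.572 for CTNNB1 in Lane 3 (edgeR).

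Within Lane 1, the 47 numbers absent from Lane 2 were set against the 48 shared with it. Of 9514 genes edgeR called 0%, with 576 at an unadjusted p under 0.05. SFRP2 had the largest difference among the 7 members, at -0.06 ± 0.03 (adjusted p = 0.773, edgeR).

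Spread between the libraries of a lane differed by member. In Lane 1 the coefficient of variation (CV) of SFRP1 was 7.6%, where counting alone gives 3.24%, and that of CTNNB1 was 7.51%, where counting alone gives 3.4%. AXIN2 stood at 14.1% beside 12.9% and FZD5 at 13.4% beside 10.6%. SFRP1 and CTNNB1 therefore varied 2.35 and 2.21 times as much as counting alone gives, TCF7L1, SFRP2 and FZD7 1.72, 1.72 and 1.73 times, FZD5 1.27 times and AXIN2 1.09 times. The median over 8281 genes with at least 10 TPM was 1.24 times. These multiples depend on count as well as on spread, because counting error is small where counts are high. Mean counts per Lane 1 library were 966 for SFRP1 and 873 for CTNNB1, but 90.5 for FZD5 and 61.2 for AXIN2. The multiples thus do not rank the genes by spread beyond counting. Over all libraries of Lanes 2, 3 and 4 the CV of AXIN2 was 13.2%, 9.21% and 5.6%, and that of CTNNB1 was 6.78%, 6.61% and 6.37%, but depth and the set of libraries change together between lanes. Over the same 6 numbers in Lanes 1 to 4, the CV of AXIN2 was 10.97%, 12.7%, 8.3% and 5.6%, and that of CTNNB1 was 6.6%, 6.47%, 5.34% and 6.37%. Thinned counts came from a single random draw, and their CV was taken on CPM, not TPM, so the measure changes as well as depth. On thinned counts AXIN2 gave 10.4%, 15.8%, 18.5% and 10.3%, with no steady fall. Thinned to a common total of 1226956 counts over the 6 numbers in all lanes, the median CV of the 7 members was 6.82%, 9.29%, 8.86% and 7.99% in Lanes 1 to 4.

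**Figure D4:**
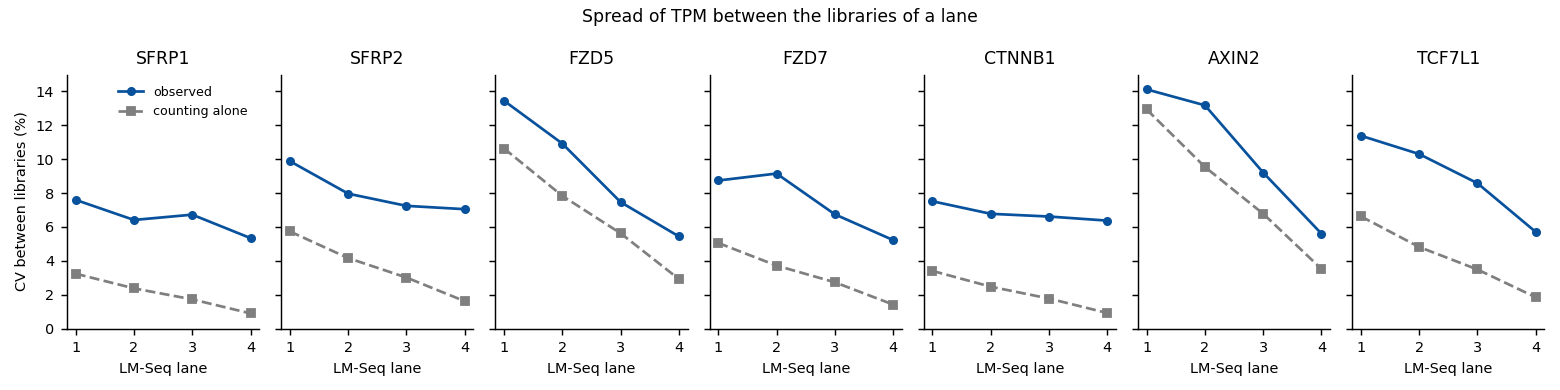
CV of TPM between libraries (vertical axes, percent) in LM-Seq Lanes 1 to 4 (horizontal axes) for the 7 members above 10 TPM, with the CV that Poisson counting alone would give. All libraries of a lane enter, 95, 48, 24 and 6 in Lanes 1 to 4, so depth and library set differ together; the observed CV of CTNNB1 is 7.51% in Lane 1 and 6.37% in Lane 4, and that of AXIN2 14.1% and 5.6%.

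Differences between library numbers recurred in another lane for most members. Over the 48 numbers in Lanes 2 and 1, log2(TPM + 1) of SFRP1 correlated with r = 0.819 (Spearman's rho 0.791), CTNNB1 with r = 0.786 (rho 0.742) and FZD7 with r = 0.759 (rho 0.681). Each had an adjusted p = 8.3e-05 for r in a two-sided permutation test over 12494 genes, from a raw permutation p of 1e-05, the smallest the resampling can give. TCF7L1 had r = 0.613 (rho 0.491; adjusted permutation p = 0.00014) and SFRP2 r = 0.587 (rho 0.592; 0.00019). AXIN2 had r = 0.334 (rho 0.345; adjusted permutation p = 0.0332) and LEF1 r = 0.317 (rho 0.241; 0.0437 for r but 0.130 for rho). FZD5, at r = 0.250 (rho 0.245), did not pass (adjusted permutation p = 0.111). Counting error lowers r where counts are few. In Lane 1 counting alone gives a CV of 10.6% for FZD5 and 12.9% for AXIN2, where 13.4% and 14.1% were observed. For SFRP1 it gives 3.24%, where 7.6% was observed. A low r for FZD5 or AXIN2 therefore does not show that their differences fail to recur. Of all genes 66.3% had a positive r past the threshold, so 7 of 8 members stand beside a high background. On log2 CPM in place of log2(TPM + 1), r was 0.634 for SFRP1, 0.747 for CTNNB1, 0.727 for FZD7, 0.478 for TCF7L1 and 0.539 for SFRP2. It was 0.321 for AXIN2, 0.380 for LEF1 and 0.148 for FZD5. The same members passed for r on that scale, beside 63.7% of all genes. Same-numbered libraries may be 1 library sequenced again, which the labels do not say.

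Without the 2 numbers farthest from the Lane 1 median, r was 0.734 for SFRP1, 0.720 for CTNNB1, 0.692 for FZD7, 0.568 for SFRP2, 0.327 for AXIN2, 0.315 for LEF1 and 0.239 for FZD5, but 0.411 for TCF7L1. A single library number was the lowest of the 48 for SFRP1, FZD7 and TCF7L1 in both lanes. Its TCF7L1 level was 103.4 TPM in Lane 2 and 102.9 TPM in Lane 1, where the medians were 158.4 and 155.8 TPM, and its SFRP1 level was 336 and 327 TPM, where the medians were 418 and 415 TPM. Another number was highest for SFRP2 in both lanes, with Lane 2 at 366 TPM and Lane 1 at 363 TPM. Over the 24 numbers in Lanes 3 and 1, AXIN2 (r = 0.186, rho 0.132) and LEF1 (r = 0.416, rho 0.514) no longer passed for r, with adjusted permutation p = 0.436 and 0.0796. LEF1 did pass for rho there (adjusted permutation p = 0.0362). FZD5 missed the threshold for r (0.448, adjusted permutation p = 0.0567) but passed narrowly for rho (0.481, adjusted permutation p = 0.0498).

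**Figure D5:**
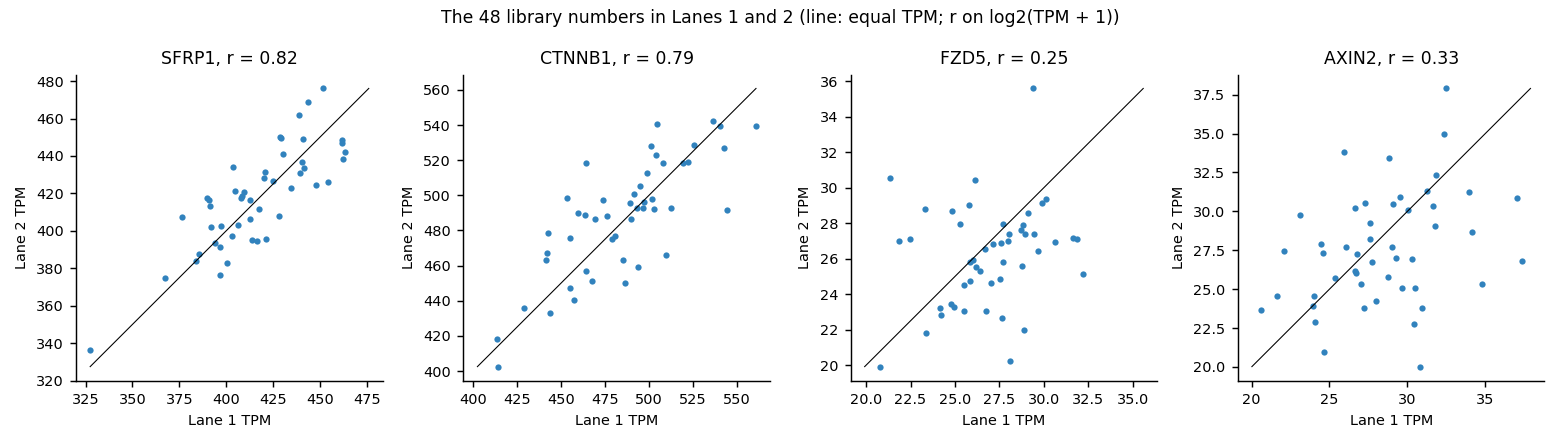
TPM of SFRP1, CTNNB1, FZD5 and AXIN2 in Lane 1 (horizontal axes) and Lane 2 (vertical axes); each point is 1 of 48 library numbers and the line marks equal TPM. Points follow the line for SFRP1 (r = 0.82) and CTNNB1 (r = 0.79) and scatter widely for FZD5 (r = 0.25) and AXIN2 (r = 0.33). Counting error makes up more of the Lane 1 spread of FZD5 and AXIN2 than of SFRP1 and CTNNB1.

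Over the 95 libraries of Lane 1, the gene with the most similar pattern among 8280 genes above 10 TPM was CLIC4 for SFRP1 (r = 0.810), SMEK1 for FZD7 (0.706), PODXL for TCF7L1 (0.682), ARHGAP5 for CTNNB1 (0.609), FADS2 for SFRP2 (0.596), TNPO1 for FZD5 (0.511) and CHKA for AXIN2 (0.410). Over the 48 libraries of Lane 2 these pairs had r = 0.738, 0.645, 0.693, 0.600, 0.296, 0.313 and 0.132, in the same order. The libraries share lane and depth range, and the partners were picked for their r in Lane 1. All 48 numbers of Lane 2 are also in Lane 1 and may be the same libraries, so the Lane 2 values are not independent of that choice. Among pairs of the members, r was highest for SFRP1 and TCF7L1, at 0.599 in Lane 1 and 0.610 in Lane 2. It was lowest for FZD7 and AXIN2, at -0.078 and -0.179, and SFRP1 and AXIN2 had r = 0.097 and 0.034. These pairs are given as a description, with no background over other gene pairs.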

How the data were processed

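Per the submitters' processing notes, reads were handled with CASAVA 1.8.2, RSEM 1.2.3 and Bowtie 0.12.8 on the build hg19. Deposited by the authors were expected counts, estimated by RSEM for each gene, and TPM, which scale counts by transcript length and library total. Use of strand in counting is not stated, so genes with overlapping or antisense partners are uncertain. Expected counts were rounded and tested with edgeR 4.0.16 (quasi-likelihood, filterByExpr, TMM, R 4.3.3) over all genes, with calls at an adjusted p (Benjamini-Hochberg) under 0.05. Alternatives were RLE factors, DESeq2 1.42.0, no filter, limma 3.58.1 on log2(TPM + 1) or log2(TPM + 0.1), thinning, other lanes, blocks and omitted replicates. Correlations used 100000 permutations. All members were named; other pathway genes were named by role, up to 3 called genes each with the lowest adjusted p and a mean of at least 1 TPM. Members and lists were chosen with earlier results of these data known. Deviations from lane means correlated between libraries that share a number, all above 0.1 (r = 0.167 to 0.638 for Lane 2 with Lane 1), so numbers pair LM-Seq samples. Different libraries of a group differed by more than counting noise (chi-square per degree of freedom at least 1.29). Calling was also run, for some of the comparisons, on counts simulated from the fitted spread under the test's own model. That check says nothing on whether replicates are technical.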

Additional observations from a re-analysis of the deposited data

Results flagged for a closer look

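The SP5 level of 1 library stood apart from the other 5 libraries of Lane 4. The library that stood apart was at 0.47 TPM, on 6 counts, and the other 5 were at 0. In all, 10 groups of member values were tested in this way. Where 5 of 6 values are 0, any value above 0 is flagged whatever its size. The chance rate of about 1 in 20 groups therefore does not apply to this flag. The counting interval of SP5 in Lane 4 rests on this library alone.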

How the results depend on the processing

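Of 290 values of the members in comparisons with TruSeq, 279 kept their direction and their side of the threshold under the alternatives run, and the changed calls of FZD5, TCF7L1, SFRP1 and LEF1 stand in the report. LEF1 in Lane 4 against H1p16 changed sign, uncalled, with Lane 3 (0.23) and with all 6 TruSeq libraries (0.16). Leaving out 1 replicate at a time gave 9828 to 10470 called genes in H1p43 against H1p16 (10460 with all), 8244 to 8411 in Lane 4 against H1p16 (9230) and 9396 to 9397 in Lane 4 against H1p43 (10318). TruSeq replicate numbers did not pair the samples (r of deviations 0.0096 to 0.043), and a fit with the replicate block called 10463 genes.

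Between lanes no member was called under any alternative run, and 22 values changed sign. All genes called were 1 in Lane 2 without a filter, 26, 44 and 13 in Lanes 2, 3 and 4 with the library number as replicate block, 60 in Lane 3 and 0 in Lane 4 when every library was used, and 0 in Lane 4 on thinned counts. Signs that changed, all uncalled, were in Lane 2 SFRP1 with RLE (-0.00068), DESeq2 (-0.00073) and all libraries (-0.013), SFRP2 with all libraries (0.013), CTNNB1 without a filter (0.011) and with all libraries (0.013), and TCF7L1 with RLE (-0.0015), DESeq2 (-0.0015) and the block (-0.00049). In Lane 3 they were SFRP1 without a filter (0.013), SFRP2 without a filter (0.0081) and with all libraries (0.0014), and, with all libraries, CTNNB1 (0.029), AXIN2 (0.00011) and TCF7L1 (-0.012). In Lane 4 they were FZD5 thinned (0.095) and with all libraries (0.013), FZD7 (-0.030) and AXIN2 (0.043) with all libraries, CTNNB1 with RLE (-0.0073) and DESeq2 (-0.0073), and TCF7L1 thinned (0.033). The cause was not tested. The median CV of the members in Lane 4 was 5.6% on TPM, and 7.99% on CPM from a single draw of counts thinned to a common total. Depth limits DKK1, SP5 and LEF1, whose values rest on few counts.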
